A study of Mus musculus with 10 samples.

Results

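RANKL (Tnfsf11), its receptor RANK (Tnfrsf11a), its soluble decoy receptor osteoprotegerin (Tnfrsf11b) and the adaptor TRAF6 (Traf6) were examined in RNA sequencing counts of mammary epithelial cells (MECs) and macrophages from the mouse mammary gland. The 4 genes were taken by symbol from the 55487 genes of the count tables, and all 4 were found once. The cells came from 10-wk-old BALB/c females in diestrus, the progesterone-dominated stage of the estrous cycle. All mice carried Cebpb fl/fl alleles, so the controls, labelled wild type and called WT here, were floxed littermates without Cre. The mice labelled C/EBPb knockdown, called Cebpb ΔM here, also carried Csf1r-iCre, in which the promoter of a receptor of the myeloid lineage drives the recombinase. MECs were obtained by removing cells that carry markers of other lineages, and macrophages by positive selection with antibody to F4/80 from glands without their lymph nodes. There were 2 MEC libraries per genotype, WT 1 and 3 and Cebpb ΔM 1 and 3, and 6 macrophage libraries, WT 4 and 5 and Cebpb ΔM 4 to 7. The digits are the replicate numbers of the labels. The labels do not say whether replicates came from separate mice, so P-values measure the spread between these libraries. Whether macrophages that lack C/EBPβ alter signals in the neighboring epithelium is the question behind the comparison of genotypes.

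In the mammary gland, progesterone acts on luminal cells that carry its receptor and that release RANKL and other signals to their neighbors. RANKL binds RANK, which recruits TRAF6 and other adaptors and activates NF-κB and MAPK signaling, whereas osteoprotegerin binds RANKL outside the cell and keeps it from the receptor. The same ligand and receptor drive macrophage precursors to become osteoclasts in bone.

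The counts were totals of 25310926 to 27008166 per MEC library and 16935000 to 20174722 per macrophage library, and 3 counts, the floor used here, correspond to 0.111 to 0.177 CPM (counts per 1000000 counts). Cebpb itself was low in every library and did not check the labels. Its level was 1.01 and 1.14 CPM in WT MECs and 2.81 and 1.63 CPM in MECs labelled Cebpb ΔM, which lay above WT (log2 difference 1.06, SE 0.47, adjusted P = 0.867, QL test). In macrophages it was 0.65 and 0.71 CPM in WT and 0.82, 0.63, 0.27 and 0.24 CPM in Cebpb ΔM 4 to 7, so that the libraries labelled Cebpb ΔM overlapped WT. Epithelial keratins were high in MECs (Krt8, 9814 to 12902 CPM), and the 8 macrophage markers summed to 31.3 to 42.7 CPM there. In macrophage libraries this sum was 7276 to 13198 CPM, but the 6 luminal markers still summed to 3889 to 7049 CPM, the 6 basal markers to 707 to 2825 CPM, the 6 fibroblast markers to 3244 to 7599 CPM and the 5 endothelial markers to 828 to 1873 CPM. The macrophage libraries thus held transcripts of the markers of other cell types. In such bulk samples, fewer cells of a type and less RNA per cell cannot be told apart.

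The start regions of the ligand and receptor genes are shown because these 2 members carried the differences described below. Tnfsf11 (ENSMUSG00000022015) lies on the minus strand of chromosome 14 at 78277445 to 78308043 on GRCm38, and Tnfrsf11a (ENSMUSG00000026321) on the plus strand of chromosome 1 at 105780718 to 105847981. The 250 bases before the RefSeq start of each gene, from 5′ to 3′ on the gene's strand, were chr14:78308044-78308293 and chr1:105780473-105780722, with capitals for matches to the motifs searched.
Tnfsf11: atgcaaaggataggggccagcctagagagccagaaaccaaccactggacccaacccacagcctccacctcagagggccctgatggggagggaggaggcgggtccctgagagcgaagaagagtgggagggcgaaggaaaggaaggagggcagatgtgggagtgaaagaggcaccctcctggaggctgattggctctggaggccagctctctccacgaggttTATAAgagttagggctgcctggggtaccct
Tnfrsf11a: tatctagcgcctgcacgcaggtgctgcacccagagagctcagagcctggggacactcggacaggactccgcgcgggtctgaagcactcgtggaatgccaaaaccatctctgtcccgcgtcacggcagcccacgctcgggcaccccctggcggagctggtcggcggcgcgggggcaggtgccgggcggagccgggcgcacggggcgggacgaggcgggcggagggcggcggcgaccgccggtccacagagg
The Tnfsf11 window held TATAA, the core of a TATA box, 30 to 26 bases before the start. This motif, searched on the forward strand, stood in 5255 of 32851 windows of the same length. Neither window, nor that of Traf6, held TTGCNNAA (part of the C/EBP motif, in 9.56% of all windows), TTCNNNGAA (the GAS motif of STAT factors, in 7.02%) or TGTTCT (a steroid receptor half-site, in 16.1%), each searched on both strands. GC content was 60.4% in the Tnfsf11 window and 73.6% in that of Tnfrsf11a, against a median of 52.4% over all windows. A match or its absence in these letters says nothing about binding of a factor.

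Tnfsf11, the ligand, was the member that changed with genotype in MECs. Its level was 0.324 CPM in WT 1 (8 counts) and 0 in WT 3 (0 counts), against 24.2 CPM in Cebpb ΔM 1 (596 counts) and 9.52 CPM in Cebpb ΔM 3 (245 counts). Both WT libraries were at or near the floor and both Cebpb ΔM libraries were far above it, with no overlap, although the Cebpb ΔM libraries differed from each other by 2.55-fold. The group means were 0.162 ± 0.229 CPM in WT and 16.9 ± 10.4 CPM in Cebpb ΔM (SD, n = 2 each). By edgeR's quasi-likelihood (QL) test, Tnfsf11 was higher in Cebpb ΔM by 6.67 (SE 0.73) on the log2 scale, with an adjusted P of 0.0111, and ranked 2 by P among the 15698 genes tested. The test called 8 of those genes, which is 0.051%. Tnfsf11 passed the filter (over 1 CPM in 2 or more libraries) only through the Cebpb ΔM libraries, in which it was called higher. With so few WT counts the fold is imprecise. It was 5.71 when WT 3 was left out and 11.7 when WT 1 was left out, where WT has 0 counts and the fitted fold is no bound. The call was lost with DESeq2 (adjusted P = 0.0765), without the filter on low counts (0.880) and in a fit of all 10 libraries (0.684). The SE was larger with DESeq2 (2.02) and in the fit of all 10 libraries (1.77). The adjusted P over all alternatives ranged from 9.64e-19 to 0.880.

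The sums of some cell type marker lists overlapped between the MEC genotypes and those of others did not. The 6 markers of hormone-sensing luminal cells summed to 3005 and 3670 CPM in WT and to 3619 and 3656 CPM in Cebpb ΔM. Prlr, the prolactin receptor, made up 1800 and 2332 CPM of this sum in WT and 1731 and 2308 CPM in Cebpb ΔM. Pgr, the progesterone receptor, was 77.3 and 85.7 CPM in WT and 54.8 and 87.0 CPM in Cebpb ΔM. Of 8 T cell markers, 4 (Cd3d, Cd3g, Cd8a and Cd28) were at or under 3 counts in each MEC library, and the list summed to 12.4 and 13.9 CPM in WT against 13.9 and 11.6 CPM in Cebpb ΔM. These sums overlapped. The 6 innate lymphoid markers did not overlap, at 479 and 358 CPM in WT and 317 and 321 CPM in Cebpb ΔM, with Klrb1c and Ncr1 at or under 3 counts in each MEC library. Gata3, which luminal cells also express, made up 450 and 331 CPM of this sum in WT and 288 and 307 CPM in Cebpb ΔM. The 8 macrophage markers summed to 36.7 and 31.3 CPM in WT and to 37.1 and 42.7 CPM in Cebpb ΔM, with Csf1r at 10.2 and 8.77 CPM against 17.2 and 19.5 CPM (log2 difference 0.97, adjusted P = 0.269, QL test). The 5 dendritic cell markers summed to 2.99 and 3.33 CPM in WT and to 5.20 and 5.87 CPM in Cebpb ΔM, with Flt3 at or under 3 counts in each library. The macrophage and dendritic sums were thus higher in both Cebpb ΔM libraries, but not marker by marker. Of the 4 macrophage markers tested in MECs, Csf1r alone had a positive log2 difference, beside Lyz2 (-0.81), Cd68 (-0.21) and Mertk (-0.04). The dendritic sum was mostly Zbtb46, at 2.06 and 2.92 CPM in WT and 4.68 and 5.44 CPM in Cebpb ΔM. The part of any of the listed cell types in the level of Tnfsf11 was not tested.

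Tnfrsf11a, the receptor, and Traf6, which carries its signal into the cell, did not pass the test in MECs. Tnfrsf11a was at 6.55 and 4.39 CPM in WT and at 5.45 and 5.67 CPM in Cebpb ΔM, so that both Cebpb ΔM libraries lay between the WT libraries. The log2 difference was 0.05 (SE 0.33, adjusted P = 0.9996, QL test). Traf6 was at 42.4 and 43.0 CPM in WT and at 34.6 and 51.9 CPM in Cebpb ΔM. Here the WT libraries lay between the others, and the log2 difference was 0.04 (SE 0.25, adjusted P = 0.9996, QL test).

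Tnfrsf11b, the decoy receptor, was at 10.5 and 9.71 CPM in WT MECs and at 8.46 and 8.35 CPM in Cebpb ΔM MECs. The genotypes did not overlap, but the log2 difference of -0.24 (SE 0.28) had an adjusted P of 0.9996 by the QL test. Of the 4 members, 2 (Tnfsf11 and Tnfrsf11b) had no overlap between the genotypes, and so did 28.2% of all genes tested in MECs. Per length of transcript, the ratio of Tnfsf11 to Tnfrsf11b counts was 0.0389 in WT 1, 0 in WT 3, 3.61 in Cebpb ΔM 1 and 1.44 in Cebpb ΔM 3. Ligand counts per length were thus above those of the decoy receptor in both Cebpb ΔM libraries and below them in both WT libraries.

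**Figure D1:**
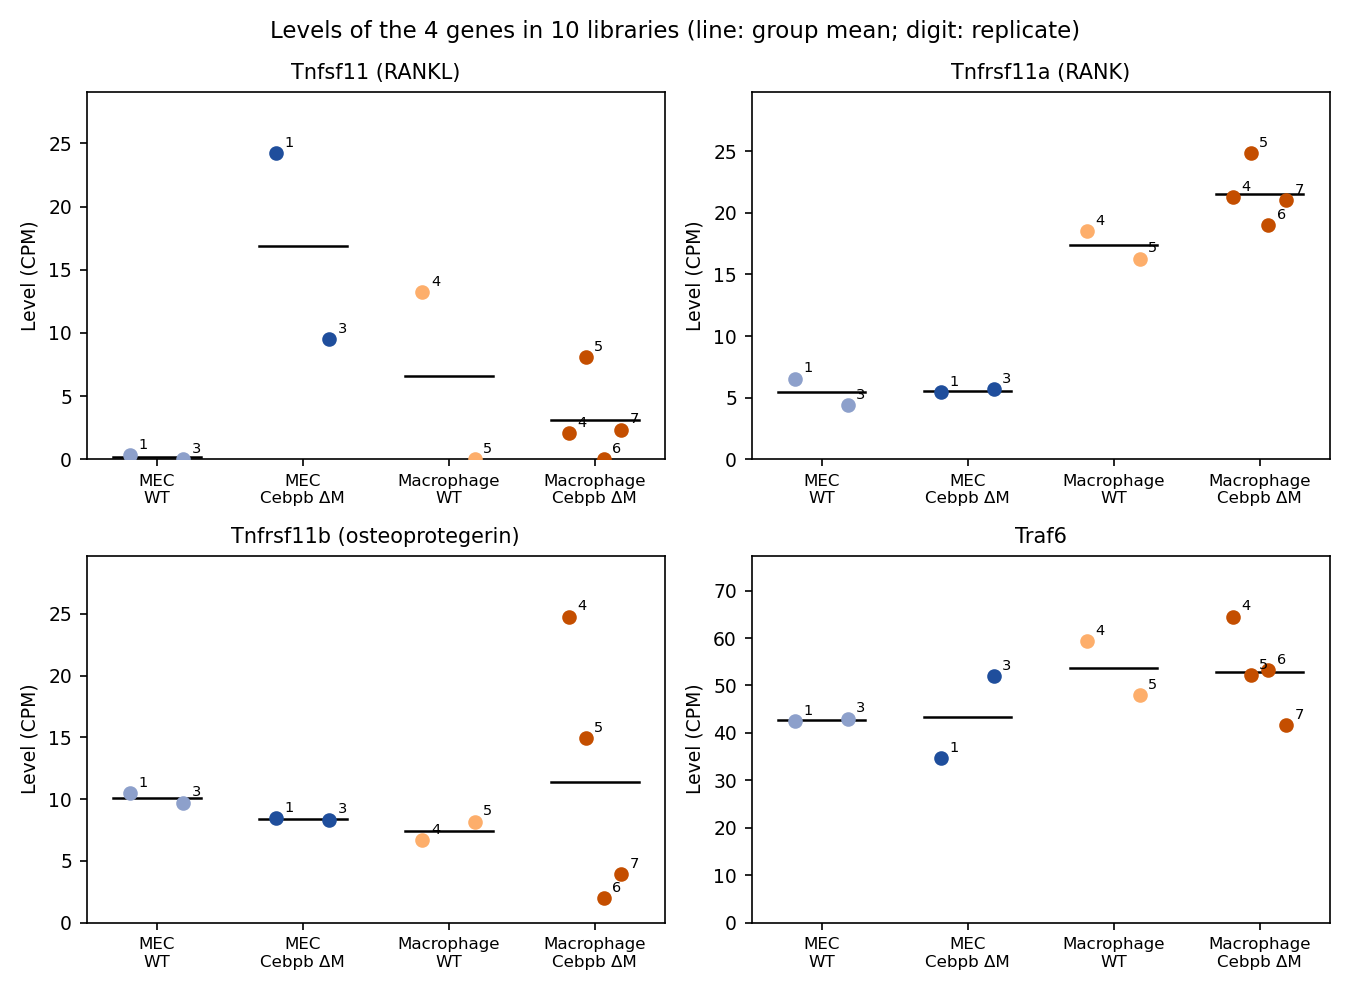
Level of each gene in the 10 libraries, in CPM scaled over all libraries, by cell type and genotype. Points are libraries with their replicate number and lines are group means. Tnfsf11 was at 9.52 and 24.2 CPM in Cebpb ΔM MECs and at most 0.324 CPM in WT MECs, whereas it spread from 0 to 13.2 CPM in macrophage libraries.

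In macrophages, no member passed the QL test between genotypes, and no gene at all did (0 of 17772, 0%). At an unadjusted P under 0.05 there were 1735 genes, and the likelihood ratio test of edgeR called 138 genes and DESeq2 201. Tnfsf11 was present in some libraries of each genotype and missing from others. It was at 13.2 CPM (264 counts) in WT 4 and at 0 (0 counts) in WT 5. In the libraries labelled Cebpb ΔM it was at 2.09, 8.08, 0 and 2.34 CPM in replicates 4, 5, 6 and 7. The WT libraries stood at both ends of the range and the genotypes overlapped, with means of 6.62 ± 9.36 CPM (SD, n = 2) in WT and 3.13 ± 3.47 CPM (SD, n = 4) in Cebpb ΔM. The log2 difference was -1.04 (SE 1.15, adjusted P = 0.825, QL test), and it turned to 8.95 when WT 4 was left out, which leaves WT with 0 counts.

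Tnfrsf11a had the least spread of the members across macrophage libraries, at 18.5 and 16.3 CPM in WT and 21.3, 24.8, 19.0 and 21.0 CPM in Cebpb ΔM 4 to 7. All 4 Cebpb ΔM libraries lay above both WT libraries, and 18.5% of all genes tested likewise had no overlap in one direction or the other. This held after scaling only, since without it WT 4 at 20.02 CPM lay above Cebpb ΔM 6 at 18.3 CPM. The log2 difference was 0.29 (SE 0.22, adjusted P = 0.722, QL test). The 8 macrophage markers all had a positive log2 difference in Cebpb ΔM, none of them called, with a median of 0.56. Their sum was 7276 and 7740 CPM in WT and 8507, 10682, 12215 and 13198 CPM in Cebpb ΔM 4 to 7. The part of this in the level of Tnfrsf11a was not tested.

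Tnfrsf11b varied more among the libraries labelled Cebpb ΔM than between genotypes in macrophages. It was at 6.67 and 8.19 CPM in WT and at 24.8, 15.0, 2.01 and 3.96 CPM in Cebpb ΔM 4, 5, 6 and 7. Replicates 4 and 5 were above both WT libraries, and replicates 6 and 7 were below both. The log2 difference was 0.62 (SE 0.79, adjusted P = 0.851, QL test) and became -0.074 without Cebpb ΔM 4. In replicates 4 and 5 alone it was 1.40 (adjusted P = 0.354). The 6 basal markers also varied over these libraries. Krt5 was at 40.7 and 11.9 CPM in WT and at 141.8, 81.5, 32.7 and 6.55 CPM in Cebpb ΔM 4 to 7. Trp63 was at 18.9 and 13.2 CPM in WT and at 66.4, 31.2, 11.3 and 3.60 CPM in Cebpb ΔM 4 to 7. Both were highest in replicates 4 and 5. The other four were also highest in replicate 4, except Myh11, but in replicate 6 they were above both WT libraries. There Krt14 was at 310 CPM (183 and 56.6 CPM in WT), Acta2 at 1126 CPM (705 and 498 CPM), Oxtr at 43.2 CPM (35.4 and 36.8 CPM) and Myh11 at 310.2 CPM (146 and 150.2 CPM). The sum of all 6 basal markers was 1129 and 767 CPM in WT and 2825, 1797, 1833 and 707 CPM in Cebpb ΔM, and none of the 6 markers was at 0. In replicate 6, the library with the lowest Tnfrsf11b, the sum was thus above WT. This sum was mostly Acta2, whereas Krt5 lay between the WT libraries there and Trp63 lay below both. The part of basal RNA in the level of Tnfrsf11b was not tested.

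Traf6 was at 59.3 and 47.9 CPM in WT macrophages and at 64.5, 52.3, 53.3 and 41.6 CPM in Cebpb ΔM 4 to 7. The genotypes overlapped, and the log2 difference was -0.04 (SE 0.21, adjusted P = 0.971, QL test). The sign was positive when WT 4 (0.12) or Cebpb ΔM 7 (0.05) was left out and in replicates 4 and 5 alone (0.11).

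An interaction term, fitted to 18323 genes in the 10 libraries together, compared the genotype effect in macrophages with that in MECs. It was largest in size for Tnfsf11 among the members, at -7.67 (SE 2.13) on the log2 scale, with an unadjusted P of 0.00311 and an adjusted P of 0.940 by the QL test. It was 2.48 without macrophage WT 4. It was 0.29 for Tnfrsf11a (SE 0.38), 0.90 for Tnfrsf11b (SE 1.03) and -0.04 for Traf6 (SE 0.34). Of all genes 0 passed (0%), with 962 at an unadjusted P under 0.05, 53 by the likelihood ratio test and 27 by DESeq2. A different response of the 4 genes in the 2 cell types was therefore not detected at this number of libraries.

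Between the cell types, RANK was the member that differed. Tnfrsf11a rose from 5.47 ± 1.53 CPM in WT MECs to 17.4 ± 1.58 CPM in WT macrophages (SD, n = 2 each), by 1.67 on the log2 scale (SE 0.28, adjusted P = 0.00109, QL test). In Cebpb ΔM it rose from 5.56 ± 0.158 CPM (SD, n = 2) to 21.5 ± 2.43 CPM (SD, n = 4), by 1.95 (SE 0.26, adjusted P = 1.05e-04, QL test). Each macrophage library was above each MEC library, and both calls were kept with any single library left out. The shares of all 18323 genes called in these comparisons were 28.1% in WT and 36.8% in Cebpb ΔM. MECs and macrophages were obtained by different selections and share no replicate numbers, so cell type and selection cannot be told apart.

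The other members did not pass in either genotype. Tnfsf11 was higher in WT macrophages than in WT MECs by 5.29 on the log2 scale (SE 2.0, adjusted P = 0.0648) and in Cebpb ΔM lower by -2.39 (SE 0.91, adjusted P = 0.0541), both by the QL test. The first value rested on macrophage WT 4 and was -4.85 without it. The second passed when macrophage WT 4 (adjusted P = 0.0221), WT 5 (0.0216) or Cebpb ΔM 5 (0.0224) was left out. Tnfrsf11b differed by -0.44 in WT (SE 0.78) and 0.46 in Cebpb ΔM (SE 0.67), and Traf6 by 0.33 (SE 0.26) and 0.29 (SE 0.22). The order of the mean levels for Tnfsf11 was Cebpb ΔM MECs, WT macrophages, Cebpb ΔM macrophages and WT MECs, of which only the pair of MEC groups passed a test. For Tnfrsf11a it was Cebpb ΔM macrophages, WT macrophages, Cebpb ΔM MECs and WT MECs, with neighbors of one cell type not called different.

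**Figure D2:**
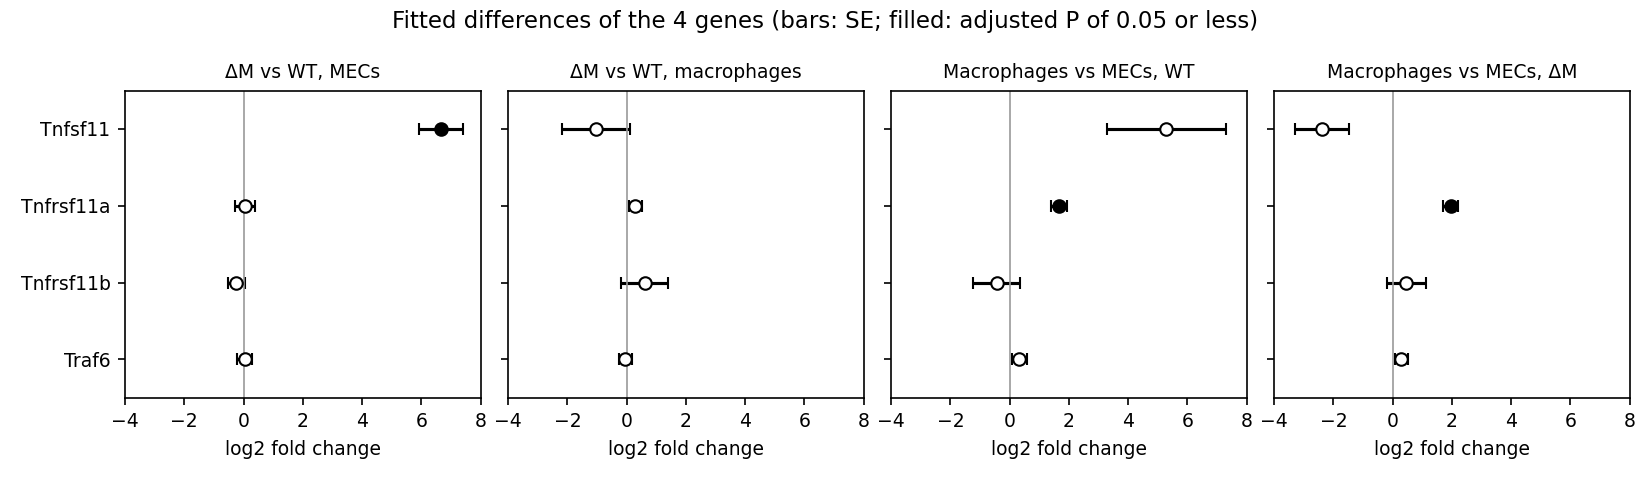
Log2 fold change of each gene with its SE (bars) in the genotype comparisons (left panels) and between cell types (right panels). Each SE was derived from the F statistic of the QL test. Filled points passed the QL test. Tnfsf11 in MECs (6.67) and Tnfrsf11a between cell types (1.67 in WT and 1.95 in Cebpb ΔM) were the filled points.

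On the scale of CPM per kilobase of transcript, on which genes can be compared, Traf6 was the most abundant member in WT MECs, at a mean level of 5.42 ± 0.0521 (SD, n = 2), followed by Tnfrsf11b at 3.58 ± 0.193, Tnfrsf11a at 0.914 ± 0.256 and Tnfsf11 at 0.0724 ± 0.102. In Cebpb ΔM MECs the mean level of Tnfsf11 was 7.55 ± 4.65, beside 5.49 ± 1.55 for Traf6, so that these 2 levels did not differ beyond their spread. The per-length ratio of Tnfrsf11a to Tnfrsf11b lay between 0.213 and 0.320 in MEC libraries and between 0.405 and 4.45 in macrophage libraries. The decoy receptor was thus above the signaling receptor in each MEC library, and also in macrophage WT 5 (0.936) and Cebpb ΔM 4 (0.405) and 5 (0.782). The per-length ratio of Traf6 to Tnfrsf11a was 4.83 to 7.44 in MEC libraries and 1.50 to 2.43 in macrophage libraries.

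Other genes of the pathway were read from lists chosen with earlier results of these data known. Of the progesterone and hormone-sensing genes, 1 of 9 passed the test in MECs, against 8 of all 15698 genes (0.051%). This was Calca, the calcitonin and CGRP gene and a known target of progesterone, at 0.16 and 0.24 CPM in WT and 3.05 and 6.37 CPM in Cebpb ΔM (log2 difference 4.53, SE 0.65, adjusted P = 0.0405, QL test). Calca passed the filter on low counts only through the Cebpb ΔM libraries. Wnt4, another progesterone-induced ligand, was at 30.3 and 24.0 CPM in WT and 66.1 and 39.5 CPM in Cebpb ΔM, with a log2 difference of 0.98 that did not pass (adjusted P = 0.271, QL test). The median of the 9 genes was 0.33, against -0.0080 over all genes tested. Of the 9, 6 were positive, against 48.6% of all genes tested. Greb1 had the largest negative log2 difference among them, at -0.91 (adjusted P = 0.9996, QL test). The paper reported Calca and Wnt4 as higher in these MECs, and the list was chosen with such results known. The shares and the median therefore describe the list and do not test it.

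Genes that act after RANK did not pass in MECs. None of the 22 adaptors and kinases of NF-κB and MAPK signaling was called, with a median log2 difference of -0.01 and a range from -0.34 (Tab2, a kinase adaptor) to 0.51 (Jun, an AP-1 subunit). None of 12 partners and regulators of TRAF6 was called, with a median of -0.12. The largest difference among them was that of Tlr4, a receptor of bacterial lipopolysaccharide, at -0.75 (adjusted P = 0.461, QL test). Among 4 genes known as targets of RANK in mammary epithelium, Rspo1, a Wnt agonist, was at 6.11 and 6.58 CPM in WT and at 12.9 and 12.2 CPM in Cebpb ΔM, with no overlap, but its adjusted P was 0.294 (QL test). The other three, Ccnd1 (0.08), Elf5 (-0.14) and Id2 (-0.18), had smaller log2 differences and were not called. Of 3 proteases able to shed RANKL, Mmp14 had a log2 difference of 0.53 (adjusted P = 0.716, QL test), Adam10 of 0.08 and Adam17 of -0.13. The further partners of RANKL and osteoprotegerin, Lgr4 (-0.09), Sdc1 (-0.04) and Tnfsf10 (-0.01), were not called either.

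In macrophages none of the genes in these lists was called. Among 15 tested genes of the osteoclast program, which RANKL drives in bone, 13 had a positive log2 difference in Cebpb ΔM, with a median of 0.58 against 0.0041 over all genes tested. Over all genes tested, 50.4% were positive. At an unadjusted P under 0.05 there were 6 of the 15, against 1735 of all 17772 genes, and among the 6 were Prdm1, a repressor of anti-osteoclast genes (1.08, adjusted P = 0.417), and Tyrobp, a signaling adaptor of myeloid cells (0.72, adjusted P = 0.435). Several of these genes, such as Tyrobp, Fcer1g and Csf1r, are general myeloid genes, and the macrophage markers had a median of 0.56 in the same libraries. Among the TRAF6 partners and regulators 10 of 12 had a positive log2 difference, with a median of 0.35, and Tnfaip3, a feedback inhibitor of NF-κB, had the smallest P of them (0.71, adjusted P = 0.417). The median of the 22 RANK adaptors and kinases was 0.06, and Traf1, an NF-κB target and TRAF6 relative, had the smallest P (0.94, adjusted P = 0.424). Wnt4, which was nominally higher in Cebpb ΔM MECs, had a log2 difference of -1.02 in macrophage libraries (adjusted P = 0.445), and 2 of the 9 hormone-sensing genes were positive there, against 50.4% of all genes tested. The 6 luminal markers all had a negative log2 difference in the same libraries, and none was called. Their sum was 7049 and 7002 CPM in WT and 4922, 3889, 3977 and 4358 CPM in Cebpb ΔM 4 to 7, with no overlap. The log2 difference was -0.89 for Krt8 and -0.82 for Krt18 (adjusted P = 0.417 each). Of the 6, these 2 alone had no overlap between genotypes, as did 18.5% of all genes tested. The difference was -0.11 for Epcam and -0.04 for Cd24a. The part of luminal RNA in the levels of the hormone-sensing genes was not tested. The sheddases Adam10 (-0.57, adjusted P = 0.424) and Mmp14 (-0.50, adjusted P = 0.505) were not called. These adjusted P-values are from the QL test.

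**Figure D3:**
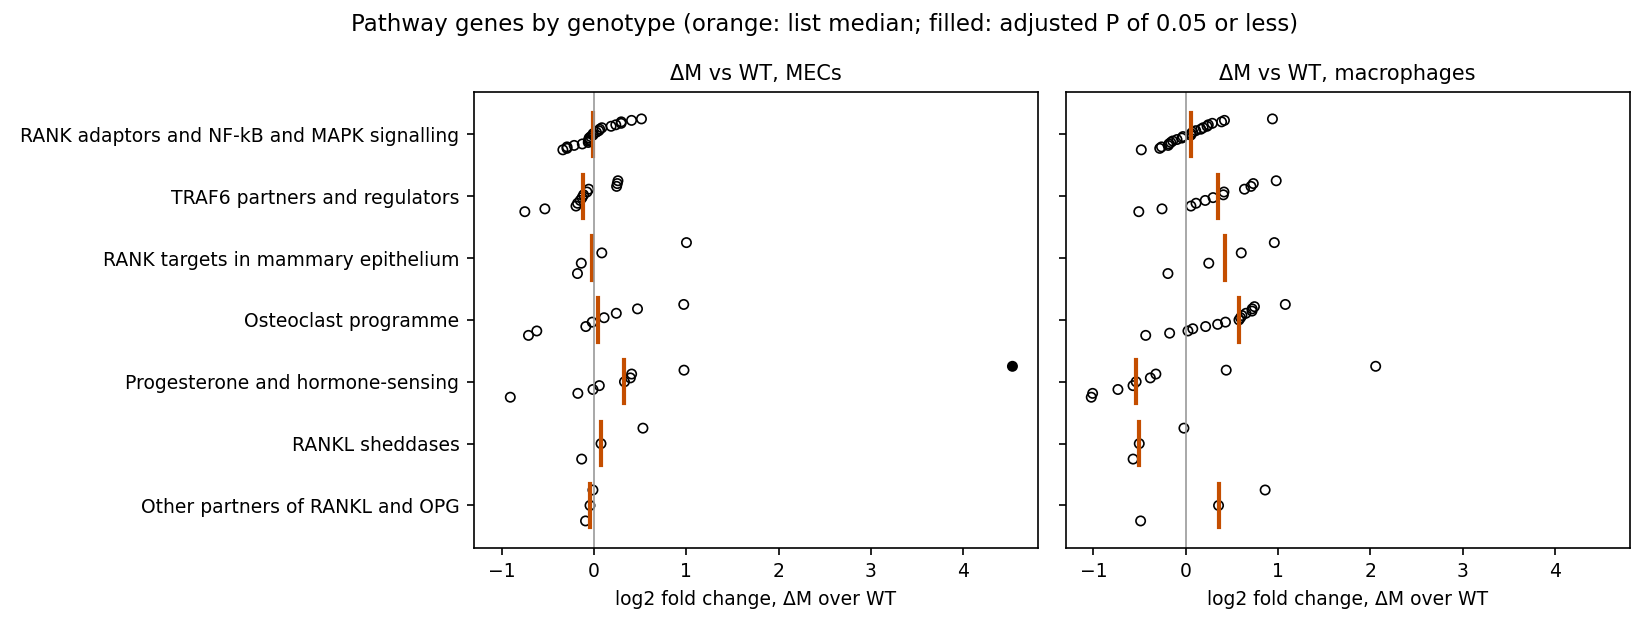
Log2 difference between Cebpb ΔM and WT of each tested gene in the 7 pathway lists, in MECs (left) and macrophages (right). Points are genes, orange lines are list medians and the filled point, Calca in MECs (4.53), passed the QL test. The lists were chosen with earlier results of these data known. Calca passed the filter on low counts only through the Cebpb ΔM libraries.

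Between cell types, 8 of 15 genes of the osteoclast program were higher in macrophages than in MECs in WT and 10 of 15 in Cebpb ΔM, with none lower. Over all 18323 genes, 2934 were higher and 2217 lower in WT (28.1% called), and 3753 were higher and 2990 lower in Cebpb ΔM (36.8%). Of the RANK adaptors and kinases, 6 of 22 were higher and 2 lower in WT, and 8 were higher and 2 lower in Cebpb ΔM. Of the TRAF6 partners and regulators, 4 of 12 were higher and 1 lower in WT, and 5 were higher and 1 lower in Cebpb ΔM. The hormone-sensing genes were lower in macrophages for 1 of 9 in WT and 6 of 9 in Cebpb ΔM, and none was called higher.

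The gene whose log2 level over the 10 libraries was most like that of Tnfsf11 was Klk4, a kallikrein-related peptidase (Pearson r = 0.97, n = 10 libraries). It was at 0.202 and 0 CPM in WT MECs and at 12.03 and 4.74 CPM in Cebpb ΔM MECs. In macrophages it was at 12.2 and 0.0476 CPM in WT and at 6.78, 3.70, 0 and 1.98 CPM in Cebpb ΔM 4 to 7. Klk4 was thus at most 5 counts in the same libraries in which Tnfsf11 was at most 8 counts (WT MECs 1 and 3, macrophage WT 5 and macrophage Cebpb ΔM 6). The next were Klk2-ps, a kallikrein pseudogene whose reads may be shared with related copies (r = 0.95), and Smap1 (r = 0.93). Calca was also low in these 4 libraries (0 to 1.71 CPM), but it was as low in Cebpb ΔM 7 (1.32 CPM) and reached 317 CPM in Cebpb ΔM 4.

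Tnfrsf11a was most like Gpr137b-ps, Ccr7 and Dcstamp (r = 0.99 each), of which Dcstamp is needed for the fusion of osteoclast precursors and Ccr7 is a chemokine receptor of dendritic cells. Dcstamp was at 0 to 0.0809 CPM in MECs and at 3.86 to 10.2 CPM in macrophage libraries. Tnfrsf11b was most like Fat2, an atypical cadherin (r = 0.95), Krt23, a keratin (r = 0.95), and Slc5a9 (r = 0.95). Fat2 was at 16.96 CPM in macrophage Cebpb ΔM 4 and at 0.0543 CPM in Cebpb ΔM 6, the libraries with the highest and the lowest Tnfrsf11b. Traf6 was most like Upf2 (r = 0.96), Tcf20 (r = 0.95) and Mfap3l (r = 0.95). Between members, r was 0.59 for Tnfrsf11a and Traf6 and from -0.10 to 0.28 for the other pairs. These values describe 10 libraries that share 2 cell types and 2 genotypes, and the genes were picked out of 18323.

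**Figure D4:**
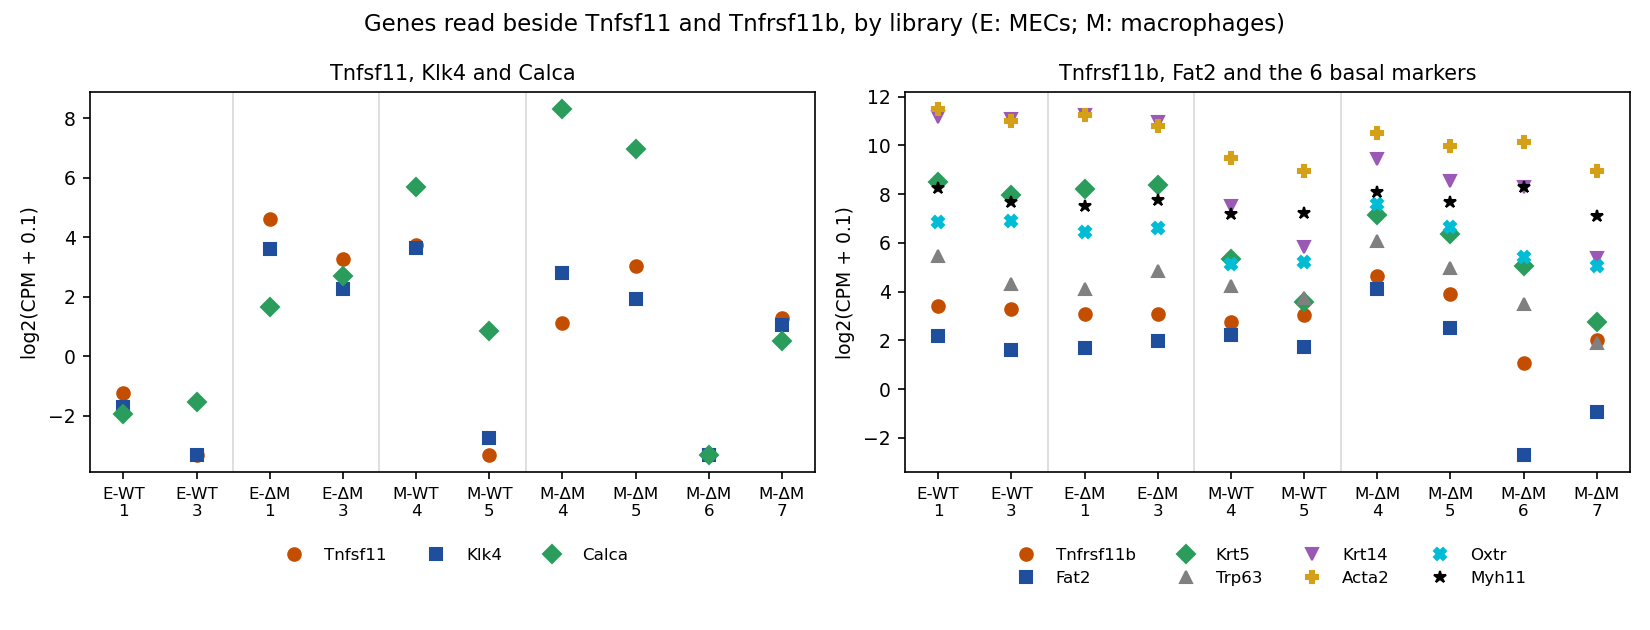
Levels as log2(CPM + 0.1) in the 10 libraries (E, MECs; M, macrophages; digits, replicates) of Tnfsf11 with Klk4 and Calca (left) and of Tnfrsf11b with Fat2 and the 6 basal markers (right). Tnfsf11 and Klk4 were low in the same 4 libraries. Tnfrsf11b and Fat2 both had their highest level in macrophage Cebpb ΔM 4 and their lowest in macrophage Cebpb ΔM 6. There Krt14, Acta2, Oxtr and Myh11 were above both WT macrophage libraries, but Krt5 and Trp63 were not.

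Neighbors are here the nearest genes on each side that passed the filter over all 10 libraries. Genes that did not pass it were skipped. The neighbors of Tnfsf11 on chromosome 14 did not move with it. Akap11, at a distance of 184203 bases, had a log2 difference of 0.01 (SE 0.23) between genotypes in MECs, and Epsti1, at 274788 bases, had 0.46 (SE 0.47). Epsti1 was at 1.25 and 1.38 CPM in WT and at 2.36 and 1.24 CPM in Cebpb ΔM, so the genotypes overlapped. The neighbors of Tnfrsf11b (ENSMUSG00000063727, chromosome 15 at 54250619 to 54278484, minus strand) were Samd12 and Mal2. Those of Traf6 (ENSMUSG00000027164, chromosome 2 at 101678429 to 101701669, plus strand) were B230118H07Rik and Prr5l. None of these neighbors, nor Relch beside Tnfrsf11a, was called in a genotype comparison. Prr5l, 12616 bases from Traf6, had the largest log2 difference among them in macrophages, at 1.04 (SE 0.27, adjusted P = 0.417, QL test), whereas Traf6 had -0.04. No other gene of the tables overlapped the span of a member on either strand.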

How the data were processed

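MECs and macrophages were analysed in 10 libraries. Per the file headers and the study's methods, the authors trimmed reads with Trimmomatic, mapped them to GRCm38 with HISAT2 and counted pairs on Ensembl release 100 with featureCounts (version 1.6.2; both ends mapped, mapping quality of at least 10, reverse-stranded). Whether the low-input kit keeps strand is not given in the sources used here; if it does not, such counting leaves out fragments read from the other strand. The deposited files hold raw whole-number counts for each gene. A replicate 2 of each MEC genotype, named in the counting header, was not analysed here. Every sample column given was mapped.

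From the counts, 8951 genes under 300 nt were dropped, as were genes that did not exceed 1 CPM in 2 or more libraries of a fit. edgeR (version 4.0.16) in R (version 4.3.3) was run with TMM normalization and the QL test, with Benjamini-Hochberg adjustment across every gene in the fit and a call at 0.05 or less. Genotypes were compared within each cell type, and cell types and the interaction over all 10 libraries. Each SE given with the QL test is the size of the log2 difference divided by the square root of the test's F statistic. It was not estimated separately. Levels are CPM scaled by TMM over all 10 libraries. Log2 CPM for likeness used a prior count of 2. The study's own test, the likelihood ratio test of edgeR, was an alternative, as were DESeq2 (version 1.42.0), the older QL test, RLE, filterByExpr, no filter, all libraries in one fit, a replicate block, macrophage replicates 4 and 5 only, and leaving out each library. The QL test with TMM and the filter above was first tried, for each comparison, on simulated data with known changes. The alternatives were not tried in this way. Promoter sequences are RefSeq's on GRCm38, and 3 of the 4 members matched. The floor of 3 counts covers counting error only.

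The members and gene lists were chosen with earlier results of these data known. Named genes are the members, their neighbors, Cebpb, list genes that passed or had the smallest unadjusted P (at most 5 a list), and the 3 genes most like each member. Single markers of cell types were named, and Calca beside Klk4, after their values were seen.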

Additional observations from a re-analysis of the deposited data

How the results depend on the processing

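The call of Tnfrsf11a between cell types was kept under all 16 alternatives in each genotype, with log2 differences of 1.41 to 1.98 in WT and 1.89 to 2.02 in Cebpb ΔM. For Tnfsf11 in MECs the log2 difference was 6.72 with DESeq2, 6.67 without the filter and 6.65 in a fit of all 10 libraries, and in these 3 the call was lost; the cause was not tested. Leaving out 1 library gave 5.71 and 11.7 for the WT libraries, and no value for the Cebpb ΔM libraries, because the gene then passed 1 CPM in a single library. The lone library is assumed to vary like the others in such fits.

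Leaving out each library in turn gave, in MECs, -0.19 to 0.35 for Tnfrsf11a, -0.27 to -0.20 for Tnfrsf11b and -0.31 to 0.33 for Traf6. In macrophages it gave -2.18 to 8.95 for Tnfsf11, 0.20 to 0.38 for Tnfrsf11a, -0.074 to 0.96 for Tnfrsf11b and -0.19 to 0.12 for Traf6. Without Cebpb ΔM 4, Tnfrsf11b in macrophages was -0.074 and in the cell type comparison of Cebpb ΔM -0.22. For the interaction it gave -12.5 to 2.48 for Tnfsf11, -0.031 to 0.55 for Tnfrsf11a, 0.18 to 1.25 for Tnfrsf11b and -0.30 to 0.29 for Traf6. Between cell types it gave -4.85 to 10.1 for Tnfsf11 in WT and -3.51 to -1.56 in Cebpb ΔM, each called in 3 of 10 cases (in WT, without macrophage WT 5 or without Cebpb ΔM 5 or 6), -0.55 to -0.26 and -0.22 to 0.81 for Tnfrsf11b, and 0.21 to 0.52 and 0.03 to 0.61 for Traf6.

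Same-numbered libraries deviated together with r = 0.10 in MECs and with 0.12 and -0.08 in macrophages. With 2 libraries per MEC genotype, both MEC pairs give the same value by construction. These values cannot show whether same-numbered libraries were prepared together, which the labels do not say. With the replicate block, Tnfsf11 in MECs was 6.75 (adjusted P = 4.86e-10), Tnfsf11 in macrophages -0.09, Tnfrsf11b in macrophages 1.36 (adjusted P = 0.257), and Traf6 turned positive in macrophages (0.10) and in the interaction (0.13). In macrophages, replicates 6 and 7 are in Cebpb ΔM only, so with the block they add nothing to the genotype effect. No call on a member changed with the block. It moved the count of called genes from 8 to 229 in MECs, from 0 to 89 in macrophages and from 0 to 4 in the interaction. In replicates 4 and 5 only, Traf6 was 0.11. Other counts of called genes in MECs were 179 by the likelihood ratio test, 161 by DESeq2, 5 with filterByExpr and 0 without the filter or with all libraries in one fit; leaving out 1 library gave 5 to 354. With 2 libraries in most groups, small differences were not detectable.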
